A study of Mus musculus with 9 samples.

Results

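The sarcoplasmic reticulum calcium-handling genes are a set of 10 listed genes, found in the deposited table by gene symbol. A row was found for 9 of the 10 among 16951 genes: Atp2a2, Pln, Ryr2, Casq1, Casq2, Hrc, Trdn, Jph2 and Asph, and Sln (sarcolipin) was not analysed here. The table covers heart tissue of C57BL/6 mice in 3 groups of 3 libraries: mice given angiotensin II (AngII, a pressor peptide that makes the heart hypertrophy) together with prostaglandin E1 (PGE1, a vasodilating prostanoid), mice given AngII alone, and mice given saline. The sources used here state no age, dose, route or length of treatment. Nothing in the labels ties a library to its own animal, so the spread behind each p-value is that between libraries and could in part be technical.

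In each heartbeat calcium that enters a cardiomyocyte through surface channels opens the ryanodine receptor (Ryr2), through which the sarcoplasmic reticulum releases its calcium store to trigger contraction. The pump SERCA2 (Atp2a2) returns calcium to the store and so relaxes the muscle, and phospholamban (Pln) restrains the pump until it is phosphorylated. Inside the store calcium is buffered by calsequestrin (Casq2 in heart, Casq1 mainly in skeletal muscle) and by the histidine-rich protein Hrc, triadin (Trdn) and junctin (a product of Asph) tether calsequestrin to the release channel, and junctophilin 2 (Jph2) holds the reticulum against the surface membrane. A low SERCA2 level and a high ratio of phospholamban to SERCA2 are widely described in the failing heart.

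Expression values are read as FPKM (the table names no unit), reads scaled to transcript length and to sequencing depth, so levels can be compared between genes as well as between libraries. Numbers 1 to 3 name the libraries of each group by the order of the table's columns. Before the genes are described, 2 libraries must be named. On the first principal component of all tested genes, which held 62.3% of the variance, saline 2 (16.31) and AngII+PGE1 1 (12.41) lay on the side of the AngII libraries (33.42 to 41.15), while the other 4 libraries lay between -38.59 and -26.43. Differences of the members from AngII are therefore given with all 9 libraries and also without saline 2 and AngII+PGE1 1. The 2 libraries stood out by their expression itself, and leaving out those nearest to AngII enlarges differences from AngII across the table, so values without them are a description and not independent evidence.

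Promoter sequence was at hand in RefSeq's table (GRCm38.p6) for 6 of the 9 genes: Casq1, Casq2, Hrc, Jph2, Pln and Ryr2. The 250 bases before the start are shown for Jph2 and Ryr2, the members closest to Atp2a2 in their pattern over the 9 libraries (below), and for Pln, the regulator of the pump. Capitals mark 3 short motifs searched on both strands: AGGTCA, a core site of several nuclear hormone receptors, which reads as its reverse complement in Jph2, then GGGCGG, known as the GC box, and TATAAA, known as the TATA box. They were chosen after the sequences were seen. The motifs do not overlap one another in these windows.
Jph2, chr2:163397994-163398243 (minus strand): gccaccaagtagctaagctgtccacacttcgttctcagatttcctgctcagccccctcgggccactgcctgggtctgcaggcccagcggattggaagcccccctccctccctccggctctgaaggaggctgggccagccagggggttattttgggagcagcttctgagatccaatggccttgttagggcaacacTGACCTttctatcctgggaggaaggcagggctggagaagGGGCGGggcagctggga
Ryr2, chr13:12106946-12107195 (minus strand): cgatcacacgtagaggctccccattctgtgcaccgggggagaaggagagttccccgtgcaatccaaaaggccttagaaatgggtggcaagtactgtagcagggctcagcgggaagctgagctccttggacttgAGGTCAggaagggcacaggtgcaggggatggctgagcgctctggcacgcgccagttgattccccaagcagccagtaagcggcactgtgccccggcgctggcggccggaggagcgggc
Pln, chr10:53337436-53337685 (plus strand): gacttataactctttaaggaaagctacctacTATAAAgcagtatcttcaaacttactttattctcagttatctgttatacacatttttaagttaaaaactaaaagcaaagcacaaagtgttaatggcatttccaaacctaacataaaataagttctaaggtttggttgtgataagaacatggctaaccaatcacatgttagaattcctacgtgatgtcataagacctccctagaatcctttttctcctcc
Among the 6 genes AGGTCA was found for Jph2 and Ryr2 only, from base -56 to -51 of the start shown for Jph2 (-76 to -71 of the second Jph2 start in the table) and from -117 to -112 for Ryr2, and 14.0% of all 32851 promoter windows hold it. GGGCGG was found for Casq1, Hrc and Jph2 (32.7% of all windows) and TATAAA for Pln (12.4%), where it lay at -219 to -214, far from the usual place of a TATA box. A match of letters is a description and not a bound site.

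With AngII+PGE1 the mean levels ran, from high to low, Pln at 2251 ± 343 FPKM, Atp2a2 at 2019 ± 706, Casq2 at 453 ± 230, Hrc at 413 ± 55.5, Jph2 at 151 ± 46.8, Asph at 78.6 ± 6.77, Trdn at 62.4 ± 50.0, Ryr2 at 62.4 ± 17.1 and Casq1 at 4.81 ± 1.09 (SD, n = 3 each). Neighbours whose libraries overlapped were Pln with Atp2a2, Casq2 with Hrc, and the run of Asph, Trdn and Ryr2. With AngII alone they ran Pln at 1341 ± 198 FPKM, Atp2a2 at 592 ± 51.9, Hrc at 313 ± 82.8, Casq2 at 260.0 ± 20.8, Trdn at 169 ± 42.3, Asph at 80.4 ± 5.06, Jph2 at 73.2 ± 7.2, Ryr2 at 40.8 ± 3.50 and Casq1 at 3.69 ± 2.09 (SD, n = 3 each). Here only Hrc with Casq2 and Asph with Jph2 overlapped, Pln lay above Atp2a2, and Trdn lay above Asph, Jph2 and Ryr2. With saline they ran Atp2a2 at 2775 ± 1453 FPKM, Pln at 2148 ± 245, Hrc at 465 ± 9.64, Casq2 at 364 ± 109, Jph2 at 135 ± 48.0, Asph at 79.5 ± 4.30, Ryr2 at 75.3 ± 26.7, Trdn at 59.7 ± 50.3 and Casq1 at 6.19 ± 2.91 (SD, n = 3 each). Overlap was found for Atp2a2 with Pln and along the run of Jph2, Asph, Ryr2 and Trdn. The 9 genes together summed to 4800 to 6016 FPKM with AngII+PGE1, 2784 to 3040 with AngII and 4085 to 7427 with saline.

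**Figure D1:**
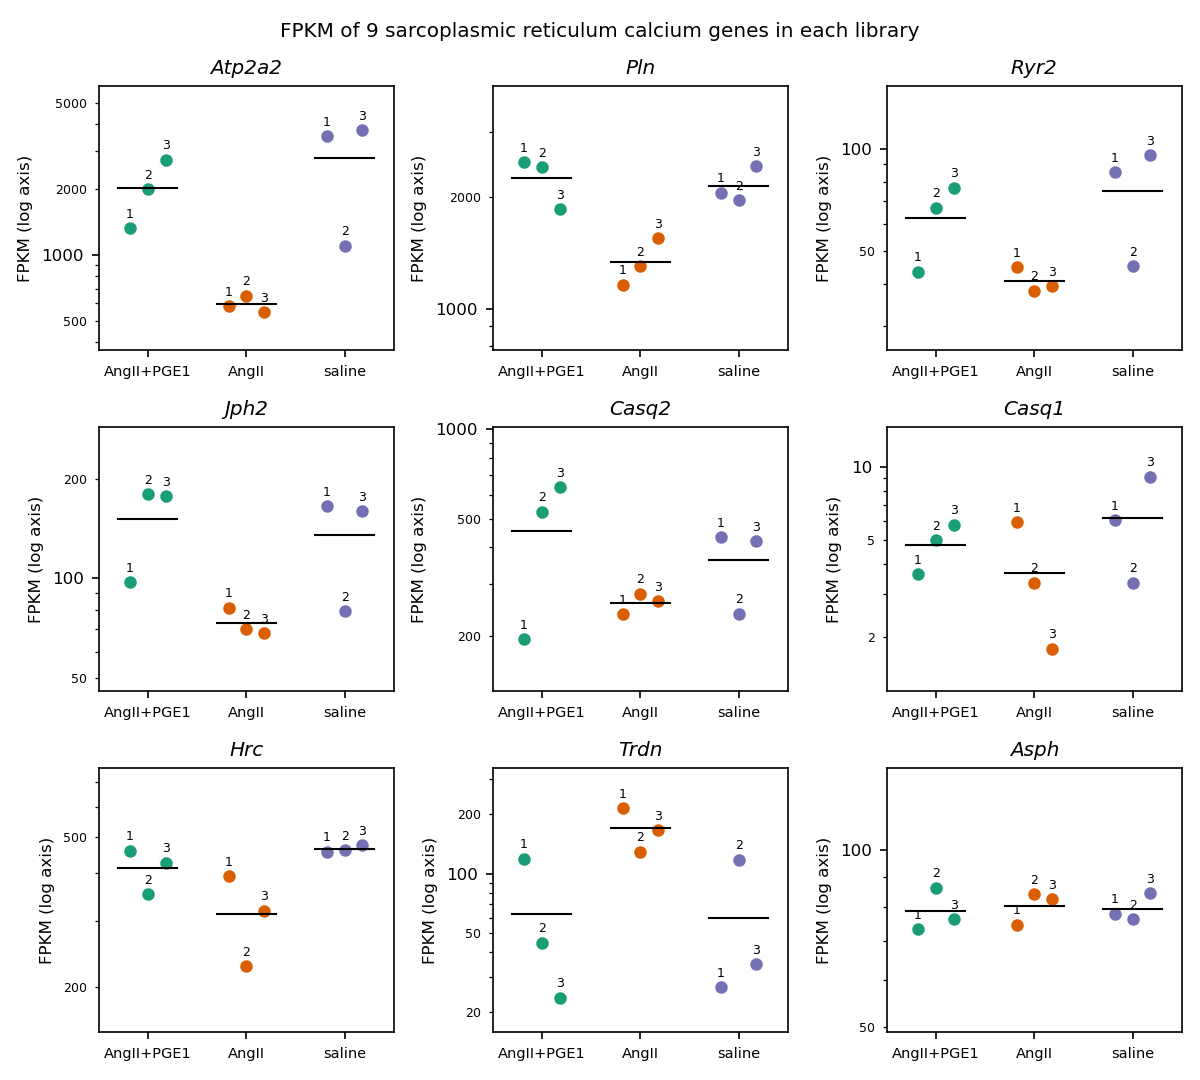
FPKM on log axes of the 9 genes in each of 9 libraries, with groups AngII+PGE1, AngII and saline from left to right, 1 point per library with its number, and a bar at the group mean. Atp2a2 is at 547 to 649 FPKM in the AngII libraries and at 1102 or more in all others, Trdn is highest with AngII, and saline 2 and AngII+PGE1 1 lie nearer the AngII libraries than the rest of their groups do for Atp2a2, Ryr2, Casq2, Trdn and Jph2.

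AngII against saline. The pump gene Atp2a2 fell with AngII and was the only member to pass the test, while Trdn was at its highest level. Atp2a2 was at 581.08, 648.84 and 546.88 FPKM in the AngII libraries, against 3500.39, 1102.1 and 3723.33 in the saline libraries. All AngII libraries lay below all saline libraries, and saline 2 was far below the other saline libraries. The log2 fold change was -2.04 (SE 0.44, 95% interval -3.01 to -1.07; limma adjusted p = 0.0453), or 0.243 times the saline level on the log2(FPKM + 1) scale. In whole tissue, fewer cells of a type and less RNA per cell cannot be told apart. Of 11902 tested genes, 3.11% passed in this comparison (1.31% higher and 1.8% lower), and 1 of 9 members passed. The call lay close to the threshold. It was lost with only the 2 compared groups in the model (limma adjusted p = 0.0503) and without a filter on low values (limma adjusted p = 0.066). It was also lost when any of 7 of the 9 libraries was left out (adjusted p = 0.0584 to 0.219) and was kept without saline 2 (log2 fold change -2.61, limma adjusted p = 0.0021) or without AngII+PGE1 1 (limma adjusted p = 0.0275).

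Phospholamban, the inhibitor of the pump, was at 1164.52, 1303.94 and 1555 FPKM with AngII, against 2057.86, 1961.03 and 2425.78 with saline. The groups did not overlap, and here saline 2 lay close to the other saline libraries. The log2 difference of -0.68 (SE 0.20, 95% interval -1.13 to -0.23) missed the threshold (limma adjusted p = 0.0712). Without saline 2 and AngII+PGE1 1 it was -0.75 (limma adjusted p = 0.0119).

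The release channel Ryr2 was at 44.79, 38.22 and 39.39 FPKM with AngII, against 85.25, 45.05 and 95.62 with saline. The groups were set apart only by the gap between AngII 1 and saline 2. The log2 difference was -0.80 (SE 0.29; limma adjusted p = 0.0946), and -1.13 without saline 2 and AngII+PGE1 1 (limma adjusted p = 0.000475). Jph2, which builds the junction where Ryr2 sits, was at 81.47, 70.05 and 68.16 FPKM with AngII, against 165.29, 79.52 and 159.69 with saline. The groups overlapped through saline 2, and the log2 difference was -0.80 (SE 0.31; limma adjusted p = 0.107), or -1.14 without saline 2 and AngII+PGE1 1 (limma adjusted p = 0.000395).

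Triadin, which anchors calsequestrin to the release channel, differed in the other direction. Trdn was at 213.3, 129.01 and 165.53 FPKM with AngII, against 26.61, 117.68 and 34.95 with saline. Every AngII library was above every saline library, but saline 2 came close to AngII 2. The log2 difference of 1.77 (SE 0.61, 95% interval 0.41 to 3.12) missed the threshold with all libraries (limma adjusted p = 0.0886). It was 2.40 without saline 2 and AngII+PGE1 1 (limma adjusted p = 0.000496). The value is per gene, and splice forms of triadin were not separated.

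Among the calcium buffers, Hrc was at 392.75, 227.43 and 318.34 FPKM with AngII, against 457.18, 461.42 and 475.58 with saline, without overlap. The saline libraries were tightly grouped, saline 2 included, and the log2 difference was -0.60 (SE 0.21; limma adjusted p = 0.0896), or -0.61 without saline 2 and AngII+PGE1 1 (limma adjusted p = 0.0468). Casq2, the cardiac calsequestrin, was at 237.93, 279.21 and 262.87 FPKM with AngII, against 433.58, 238.66 and 418.88 with saline. The groups overlapped through saline 2, and the log2 difference of -0.44 did not pass (limma adjusted p = 0.44). Without saline 2 and AngII+PGE1 1 it was -0.71 (limma adjusted p = 0.00391). Casq1, the skeletal isoform, stayed low at 1.79 to 5.93 FPKM with AngII and 3.35 to 9.16 with saline (log2 difference -0.63, limma adjusted p = 0.23, and without saline 2 and AngII+PGE1 1 -0.95, limma adjusted p = 0.044). Asph, which encodes junctin, junctate and an aspartyl hydroxylase from 1 gene, was the flattest member, at 74.66 to 84.17 FPKM with AngII and 76.2 to 84.37 with saline. Its log2 difference was 0.02 (95% interval -0.29 to 0.32; limma adjusted p = 0.943), or -0.01 without those 2 libraries (limma adjusted p = 0.935), a sign that turned with median-ratio scaling, with quantile normalization and when some libraries were left out.

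Counted together, 5 members did not overlap between AngII and saline, where 33.7% of all tested genes did not. Of these 4 lay lower with AngII without overlap (Atp2a2, Pln, Ryr2 and Hrc), where 15.8% of all tested genes did, and 1 lay higher (Trdn), where 17.9% did. The median log2 difference of the 9 members was -0.63, beside 0.00 over all tested genes (median 0.0011). Without saline 2 and AngII+PGE1 1, 7 members fell and Trdn rose, 8 of 9 in all, where 49.1% of 11750 tested genes passed (24.2% higher and 24.9% lower).

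**Figure D2:**
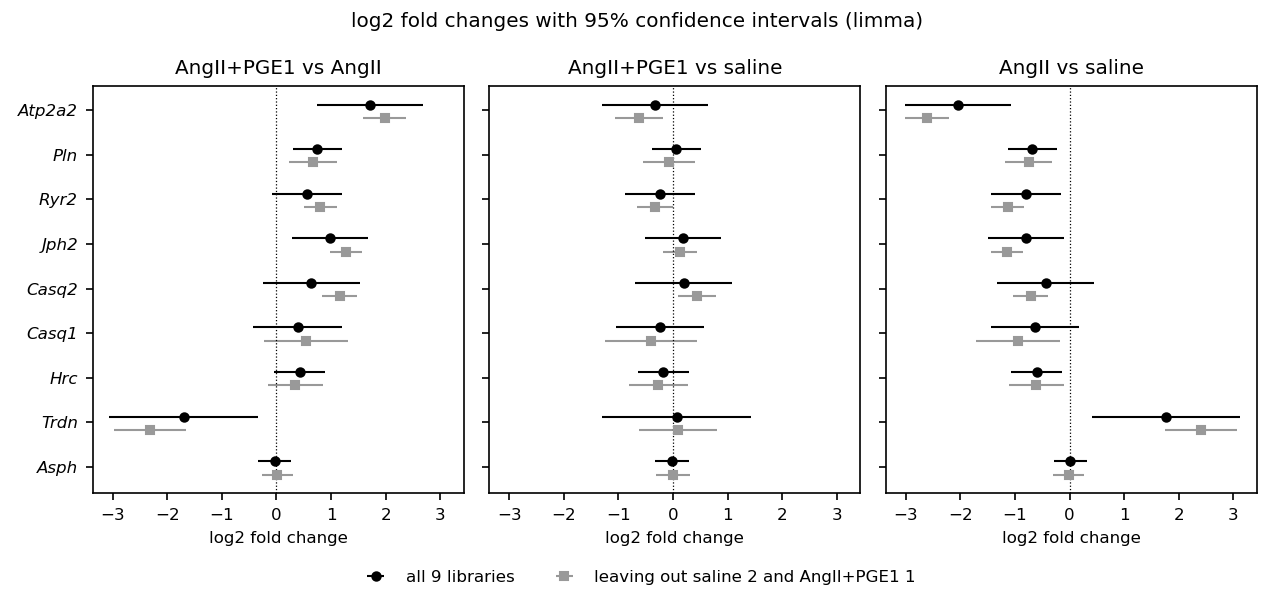
log2 fold changes (x axis) of the 9 genes (y axis) in 3 comparisons, with 95% confidence intervals from limma, for all 9 libraries (circles) and leaving out saline 2 and AngII+PGE1 1 (squares). Atp2a2 and Trdn lie on opposite sides of 0 in the comparisons of AngII+PGE1 with AngII and of AngII with saline, and all intervals with 9 libraries include 0 in AngII+PGE1 vs saline.

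AngII+PGE1 against AngII. With PGE1 added, Atp2a2, Pln and Jph2 were higher and Trdn was lower without overlap between groups, but no member passed the test with all 9 libraries. Both comparisons use the same AngII libraries, so opposite differences are not independent of those above. Atp2a2 was at 1322.39, 2000.06 and 2734.41 FPKM with AngII+PGE1, against 581.08, 648.84 and 546.88 with AngII. The lowest AngII+PGE1 library, the one that stands apart, was still above every AngII library. The log2 difference was 1.71 (SE 0.44, 95% interval 0.74 to 2.68; limma adjusted p = 0.0615). With only these 2 groups in the model it passed (limma adjusted p = 0.0351), as it did without saline 2 and AngII+PGE1 1 (1.98, limma adjusted p = 0.000336).

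Pln was at 2485.06, 2410.84 and 1856.97 FPKM with AngII+PGE1, against 1164.52, 1303.94 and 1555 with AngII. The groups did not overlap, and AngII+PGE1 1 was the highest library for this gene. The log2 difference was 0.75 (SE 0.20; limma adjusted p = 0.0655), or 0.67 without saline 2 and AngII+PGE1 1 (limma adjusted p = 0.021). Jph2 was at 97.17, 179.31 and 177.28 FPKM with AngII+PGE1, against 81.47, 70.05 and 68.16 with AngII, and AngII+PGE1 1 lay close to AngII 1. Its log2 difference was 0.99 (SE 0.31; limma adjusted p = 0.0819), or 1.28 without those 2 libraries (limma adjusted p = 0.000403).

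Ryr2, at 43.48, 66.96 and 76.81 FPKM with AngII+PGE1, overlapped the AngII libraries through AngII+PGE1 1 (log2 difference 0.57, limma adjusted p = 0.189). Without that library and saline 2 it was 0.80 (limma adjusted p = 0.00222). Casq2 was at 195.71, 527.01 and 637.02 FPKM with AngII+PGE1. Its AngII+PGE1 1 value was the lowest of the 9 libraries and the other 2 were the highest, and the log2 difference of 0.64 did not pass (SE 0.40; limma adjusted p = 0.272). Without the 2 libraries that stand apart it was 1.16 (limma adjusted p = 0.000693). Hrc, at 459.87, 351.76 and 427.43 FPKM with AngII+PGE1, overlapped the AngII range (log2 difference 0.43, limma adjusted p = 0.177, and without those 2 libraries 0.34, limma adjusted p = 0.23).

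Trdn was at 118.88, 44.75 and 23.66 FPKM with AngII+PGE1, against 213.3, 129.01 and 165.53 with AngII. The groups did not overlap, and AngII+PGE1 1 was the closest to AngII. The log2 difference was -1.70 (SE 0.61, 95% interval -3.06 to -0.34; limma adjusted p = 0.0995), or -2.31 without saline 2 and AngII+PGE1 1 (limma adjusted p = 0.000728). Casq1 (log2 difference 0.39, limma adjusted p = 0.456) and Asph (-0.03, limma adjusted p = 0.876) missed the threshold. Without those 2 libraries Casq1 was at 0.54 (limma adjusted p = 0.217) and Asph at 0.01 (limma adjusted p = 0.934).

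Of the 9 members 0 passed at an adjusted p under 0.05 by limma, where 0.403% of all tested genes did, and 4 had an unadjusted p under 0.05, as 4005 of the 11902 genes had. Of all genes 24 were higher and 24 lower (0.202% each), but 219 and 117 with median-ratio scaling, which moved the median difference of all genes to 0.03, beside -0.08 in the values as deposited. Relative to that shift no member other than Asph changed sign. Between these groups 4 members did not overlap, where 36.1% of all tested genes did not: 3 members were higher, where 16.3% of all tested genes were, and 1 was lower, where 19.7% were. Leaving out saline 2 and AngII+PGE1 1, 5 members rose (Atp2a2, Pln, Ryr2, Casq2 and Jph2) and Trdn fell, 6 of 9, where 44.9% of all tested genes passed (18.1% higher and 26.8% lower).

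AngII+PGE1 against saline. No member passed, and no member was free of overlap between these groups. The test called 0.0168% of all tested genes and 10.2% of them did not overlap (2.3% higher and 7.89% lower). None of the 9 members had an unadjusted p under 0.05, where 504 of the 11902 tested genes had, and limma adjusted p was 1 for each. Intervals were wide for the genes most spread within groups: the log2 difference was -0.33 for Atp2a2 (95% interval -1.30 to 0.64) and 0.07 for Trdn (-1.29 to 1.42), and these data do not show that the groups are alike. Narrower intervals were obtained for Pln (0.06, 95% interval -0.39 to 0.51) and Asph (-0.02, -0.32 to 0.29). Without saline 2 and AngII+PGE1 1 none passed either, and Atp2a2 differed by -0.63 (95% interval -1.06 to -0.19; limma adjusted p = 0.316) and Casq2 by 0.44 (95% interval 0.09 to 0.80; limma adjusted p = 0.369), where 0.162% of all genes passed (0.034% higher and 0.128% lower).

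The ratio of Pln to Atp2a2 compares the inhibitor with its target inside a library and does not depend on how the library was scaled. It was 1.88, 1.21 and 0.679 in the AngII+PGE1 libraries, 2.004, 2.01 and 2.84 in the AngII libraries and 0.588, 1.78 and 0.652 in the saline libraries. Every AngII library had at least 2.004 FPKM of Pln per FPKM of Atp2a2, and every other library had less. Group means were 1.25 ± 0.602 with AngII+PGE1, 2.29 ± 0.483 with AngII and 1.01 ± 0.67 with saline (SD, n = 3 each). On the log2 scale AngII exceeded saline by 1.36, a ratio 2.56 times as high (two-sided exact permutation p = 0.1, adjusted over 3 comparisons p = 0.15). AngII+PGE1 lay below AngII by a log2 difference of -0.97 (exact permutation p = 0.1, adjusted p = 0.15). AngII+PGE1 against saline gave 0.39 (exact permutation p = 0.5, adjusted p = 0.5). With 3 libraries against 3 the smallest p this test can give is 0.1, so no ratio could pass 0.05. Without saline 2 and AngII+PGE1 1 the log2 differences were 1.86, -1.32 and 0.55 in the same order. Over single libraries left out, the difference of AngII from saline ran between 1.07 and 1.86.

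**Figure D3:**
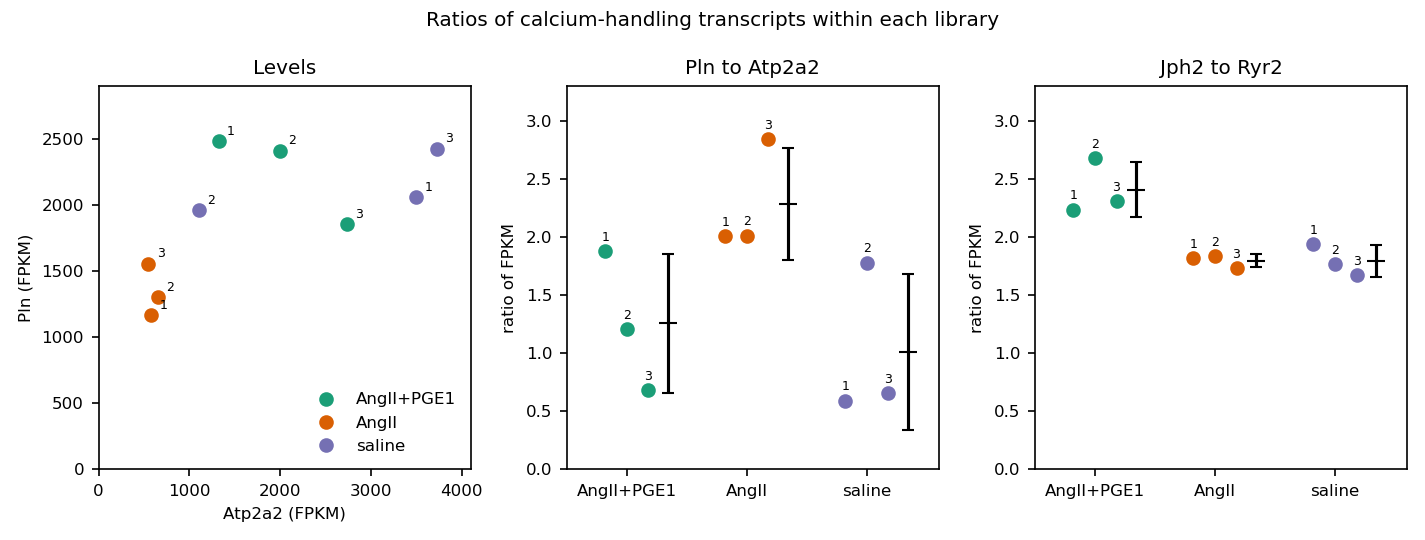
Left, Pln against Atp2a2 in FPKM for each library. Middle and right, the ratios of Pln to Atp2a2 and of Jph2 to Ryr2 per library, with the group mean and SD beside the numbered points. The AngII libraries have the highest ratios of Pln to Atp2a2 (2.004 to 2.84), and the AngII+PGE1 libraries have the highest ratios of Jph2 to Ryr2 (2.23 to 2.68).

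Other ratios within a library showed which members kept step. Casq2 per Atp2a2 was 0.148, 0.264 and 0.233 with AngII+PGE1, 0.409, 0.43 and 0.481 with AngII, and 0.124, 0.217 and 0.113 with saline. AngII was set apart from both other groups, so the pump transcript was lower relative to its store buffer as well as to its inhibitor. Jph2 per Ryr2 was 2.23, 2.68 and 2.31 with AngII+PGE1, 1.82, 1.83 and 1.73 with AngII, and 1.94, 1.77 and 1.67 with saline. For this pair AngII and saline were nearly level (log2 difference 0.00, from 0.0045; exact permutation p = 1), while AngII+PGE1 was above AngII by 0.42 and above saline by 0.42 without overlap, AngII+PGE1 1 included (exact permutation p = 0.1 each). Trdn per Casq2 was 0.607, 0.0849 and 0.0371 with AngII+PGE1, 0.896, 0.462 and 0.63 with AngII, and 0.0614, 0.493 and 0.0834 with saline, and the libraries that stand apart fell within or near the AngII values. Ryr2 per Casq2 was 0.222, 0.127 and 0.121 with AngII+PGE1, 0.188, 0.137 and 0.15 with AngII, and 0.197, 0.189 and 0.228 with saline. For this pair AngII lay below saline without overlap (log2 difference -0.38, exact permutation p = 0.1), and AngII+PGE1 overlapped both. Hrc per Casq2 overlapped in all 3 comparisons. Over the 5 ratios and 3 comparisons examined beside Pln to Atp2a2, 15 in all, no adjusted p was below 0.3.

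Cardiomyocyte markers were set beside these values. The summed FPKM of 12 cardiomyocyte markers, all 12 measured in every library, was 78399 to 95516 with AngII+PGE1, 78058 to 108219 with AngII and 69819 to 103380 with saline, so the AngII range was not below the others. Its 3 highest values were AngII 1, saline 2 and AngII 3, and the part of such differences in the member values was not tested. Set against the mean log2 level of those 12 genes, Atp2a2 was at -1.51, -0.89 and -0.34 with AngII+PGE1, -2.97, -2.41 and -2.91 with AngII, and 0.36, -1.91 and 0.41 with saline. The AngII libraries were again the lowest, and the log2 difference from saline was -2.39, beside -2.04 for the level itself (exact permutation p = 0.1, the smallest possible). Relative to the same markers Trdn was higher in every AngII library than in every saline library (log2 difference 1.45, exact permutation p = 0.1). Adjusted over the 27 such tests, both gave an exact permutation p of 0.27. The markers differed among themselves: of 12, 9 had a positive and 3 a negative difference for AngII against saline and none passed by limma, with 4 of the 12 at an unadjusted p under 0.05, beside 4169 of all 11902 tested genes.

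Among markers of other cell types, 1 of 9 fibroblast genes (Postn) and 1 of 6 smooth muscle genes (Cnn1) rose with AngII against saline by limma. Of all tested genes 1.31% rose. The lists were split in direction, with 5 positive and 4 negative differences for fibroblast and 3 and 3 for smooth muscle genes. No other tested marker passed in that comparison, and none passed for AngII+PGE1 against AngII or against saline. Fibroblast markers summed to 439 to 477 FPKM with AngII+PGE1, 593 to 2117 with AngII and 540 to 621 with saline, and endothelial markers (8) to 260 to 350, 272 to 428 and 412 to 494. Smooth muscle markers summed to 165 to 202, 187 to 404 and 251 to 371 FPKM in that order, and leukocyte markers (8) to 280 to 413, 368 to 536 and 306 to 457. Red blood cell markers (5 measured of 6) ranged from 141 to 9747 FPKM with AngII+PGE1, 239 to 2295 with AngII and 148 to 1388 with saline. Their part in the member values was not tested. Of the atrial markers (10 measured of 11) Nppa made up most of the sum, and Myl7, an atrial myosin light chain, was at 0.29 to 3.26 FPKM. Kcna5 was at 9.43 to 17.7 FPKM, Stard10 at 11.54 to 25.19, Gja5 at 1.62 to 3.95 and Myl4 at 1.65 to 5.85. Dkk3 was at 0.62 to 7.87 FPKM and Sbk2 at 0.07 to 6.33, and 2 of these markers were under 1 FPKM in all libraries. The 13 skeletal muscle markers summed to 1717 to 2335 FPKM with AngII+PGE1, 1280 to 2052 with AngII and 2034 to 2339 with saline, mostly from Ckm, which heart muscle also expresses. Of the 13, 6 were under 1 FPKM in all libraries, with the myosins Myh1, Myh2 and Myh4 at or below 0.08. Mybpc2 was at 2.47 to 13.13 FPKM, Myot at 14.14 to 37.3, Tnni2 at 1.55 to 3.79, Mylpf at 0.82 to 4.23 and Pvalb at 0 to 1.31. Tnnt3 was at 5.39 FPKM in AngII 2 and 4.96 in AngII 3, and at 0.2 to 0.91 in all other libraries. Their part in the Casq1 values was not tested. The adipocyte markers (4 measured of 6) were under 1 FPKM throughout. No measured marker was at 0 in all libraries, but no gene with a row was, so this could not have come out otherwise. Listed markers without a row could not be checked.

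Among relatives of the members, the pump gene Atp2a1 stayed at 0.17 to 0.57 FPKM, and the pump gene Atp2a3 was at 3.34 to 6.21. The release channels Ryr1 and Ryr3 were at 0 to 0.03 and 0.01 to 0.15, whereas the junctophilin Jph1 was at 6.8 to 10.08 FPKM. In a wider list of 49 genes of the reticulum, its junctions and its kinases and phosphatases, 48 had a row and 42 were tested. For AngII against saline 1.31% of all tested genes rose and 1.8% fell, with 5958 positive and 5944 negative differences and a median of 0.0011. In the list 1 rose, 0 fell and 41 did not pass, with 16 positive and 26 negative differences and a median of -0.24. Of the 42, 17 had an unadjusted p under 0.05, as 4169 of all 11902 tested genes had. The riser was Jsrp1, the junctional protein JP-45, at 2.34, 2.98 and 1.8 FPKM with AngII, against 0.53, 0.86 and 0.48 with saline (log2 fold change 1.05, SE 0.22, limma adjusted p = 0.0453). Its call lay close to the threshold. The call is a description only, because the gene passed the filter on low values only through its AngII libraries. Jsrp1 was under 1 FPKM in every saline library. It was at 0.41, 1.42 and 0.82 FPKM with AngII+PGE1, below AngII in all libraries (log2 difference -0.86, limma adjusted p = 0.0622). None of the 42 passed for AngII+PGE1 against AngII (16 at an unadjusted p under 0.05) or against saline (2). Of all 11902 tested genes 4005 and 504 had such a p in these comparisons. Of 8 surface calcium channel, exchanger and pump genes none passed by limma for AngII against saline or AngII+PGE1 against AngII, with 3 of the 8 at an unadjusted p under 0.05 in each, beside 4169 and 4005 of all 11902 tested genes. Without saline 2 and AngII+PGE1 1 the wider list had 6 that rose and 16 that fell for AngII against saline, 22 of 42 beside 49.1% of all genes.

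**Figure D4:**
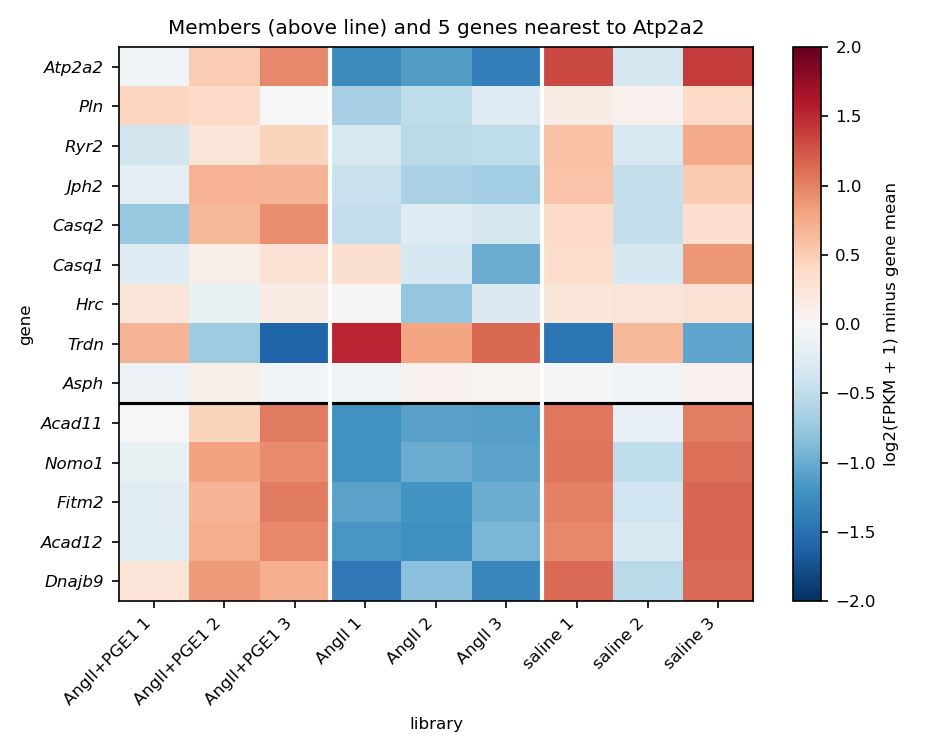
log2(FPKM + 1) minus the gene's mean over 9 libraries (colour, red above and blue below the mean) for the members and, under the line, for the 5 genes nearest to Atp2a2; libraries run AngII+PGE1, AngII, saline. Trdn runs against the other members, Asph is nearly flat, and the AngII libraries are the lowest 3 for each of the 5 nearest genes.

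Over the 9 libraries the pattern of Atp2a2 was compared with that of every tested gene, by the root mean square difference of log2(FPKM + 1) after each gene's mean was taken off. Among members Jph2 was the nearest to Atp2a2 (0.56), then Ryr2 (0.61), Casq2 (0.74), Casq1 (0.75), Pln (0.80), Hrc (0.88), Asph (1.04) and last Trdn (2.14). Outside the set the 5 nearest genes were Acad11 (0.19) and Acad12 (0.23), which encode acyl-CoA dehydrogenases, Nomo1 (0.21), Fitm2 (0.21), a lipid droplet protein of the endoplasmic reticulum, and Dnajb9 (0.25), a chaperone of the endoplasmic reticulum. All 5 were thus nearer than any member, but they were picked as the nearest of all tested genes outside the set. Their likeness to Atp2a2 is therefore no separate evidence. The measure also depends on the size of a gene's changes and not only on their direction. Acad11 was at 24.28, 33.77 and 51.5 FPKM with AngII+PGE1, 10.07, 10.97 and 10.9 with AngII, and 52.11, 21.71 and 50.79 with saline, with the same low saline library. Trdn had the widest span of the members over the 9 libraries, 3.12 on the log2 scale, beside 2.77 for Atp2a2, 1.09 for Pln and 0.23 for Asph.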

How the data were processed

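Messenger RNA of mouse heart was sequenced as single-end reads on the BGIseq500 platform, per the labels' protocols. Deposited expression values were taken as FPKM. No header names this unit, which was inferred from the values: column sums differed by a ratio of 1.26, and sums of value times transcript length by 1.1. Deposited log2 ratios between groups were not used. RSEM 1.2.12, Bowtie2 2.2.5, HISAT2 2.0.4 and mm9 appear in the submitters' processing notes without their roles. The annotation and any use of strand are not given in the sources used here, and read totals were not used. FPKM is relative, so very abundant transcripts lower all others.

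A gene was tested where 3 or more libraries reached 1 FPKM (11902 genes), as log2(FPKM + 1), which understates changes of low genes, in 1 limma 3.58.1 model (R 4.3.3) of all 9 libraries with a variance trend and 6 residual degrees of freedom, with Benjamini-Hochberg adjustment over all tested genes and a threshold of 0.05. On simulated data for AngII against saline with 11902 genes, this model recovered 69% of 100 genes changed by 1 on the log2 scale and 92% of 100 changed by 2, with 8 unchanged genes called. The simulated noise was drawn independently for each gene and library. It therefore lacks the shift that many genes share in saline 2 and AngII+PGE1 1, and these rates need not hold for the real libraries. Ratios were tested by exact permutation.

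Alternatives were median-ratio scaling, quantile normalization, no filter or a minimum of 5 FPKM, a pseudocount of 0.1, robust limma, only the 2 compared groups, and libraries left out. Columns show the group of a library but carry other numbers than the labels, so they pair nothing. All members are named, with the wider list's genes past the threshold and the 5 genes nearest to Atp2a2. The members and lists were chosen with earlier results of these data known, and the promoter motifs and the ratios other than Pln to Atp2a2 after the values were seen. Promoters are RefSeq GRCm38.p6, another build than mm9.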

Additional observations from a re-analysis of the deposited data

How the results depend on the processing

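For AngII against saline 370 genes passed with all libraries, and 88 without a filter, 593 with quantile normalization and 5768 leaving out saline 2 and AngII+PGE1 1. Members past the threshold numbered 1, and 0 with the 2 compared groups only or without a filter, 2 with quantile normalization, where Pln passed (-1.02, limma adjusted p = 0.0478), and 8 leaving out those 2 libraries. For AngII+PGE1 against AngII 48 genes passed, and 772 with the 2 groups only, 6 without a filter, 336 with median-ratio scaling and 5279 leaving out both libraries. Members numbered 0, and 1 with the 2 groups only and 6 leaving out both libraries. For AngII+PGE1 against saline 2 genes passed, and 1 with the 2 groups only, 0 without a filter and 19 leaving out both libraries. The cause of these moves was not tested.

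Leaving out 1 library at a time, the genes passed ranged from 0 to 4512 for AngII against saline (4512 without saline 2, and 0 without AngII 2, AngII 3, saline 1 or saline 3), from 0 to 3193 for AngII+PGE1 against AngII (3193 without AngII+PGE1 1) and from 0 to 23 for AngII+PGE1 against saline. Members passed ranged from 0 to 5, 0 to 4 and 0 to 0. The log2 difference of the Pln to Atp2a2 ratio ranged from 1.07 to 1.86, from -1.32 to -0.58 and from 0.04 to 0.90 in the same order, and adding 1 to each FPKM gave 1.36, -0.96 and 0.39.

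In AngII against saline and AngII+PGE1 against AngII, Atp2a2, Pln, Ryr2, Casq1, Casq2, Hrc, Trdn and Jph2 kept their direction under all 17 alternatives. Some of the 17 could not turn a sign, because they leave a gene's log2 difference unchanged. They were the compared groups alone, no filter, a minimum of 5 FPKM, robust limma, and leaving out a library outside the comparison. Where groups do not overlap, leaving out libraries or changing the pseudocount cannot turn a sign either. This held for Atp2a2, Pln, Ryr2, Hrc and Trdn in AngII against saline. It also held for Atp2a2, Pln, Jph2 and Trdn in AngII+PGE1 against AngII. For these genes only median-ratio scaling and quantile normalization tested the direction. Signs turned for Asph: AngII against saline gave -0.0208 with quantile normalization, -0.0225 with median-ratio scaling and -0.0142 leaving out both libraries, AngII+PGE1 against AngII gave 0.1031 with median-ratio scaling and 0.0143 leaving out both, and AngII+PGE1 against saline gave 0.0806 and 1e-04. Pln in AngII+PGE1 against saline gave -0.1062 with quantile normalization and -0.0785 leaving out both. Leaving out 1 library, Asph ran from -0.0181 to 0.0673 for AngII against saline and from -0.1012 to 0.0143 for AngII+PGE1 against AngII. For AngII+PGE1 against saline Pln ran from -0.0158 to 0.1943, Ryr2 ran from -0.5645 to 0.001, Casq1 ran from -0.5614 to 0.0505, Casq2 ran from -0.1285 to 0.7202, Trdn ran from -0.5454 to 0.7042, Jph2 ran from -0.1563 to 0.4738 and Asph from -0.0858 to 0.0297. No paired analysis was possible because the columns do not carry the labels' replicate numbers, so the replicate block was not run. Precision is limited by 3 libraries a group.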

Other observations

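Around the pump and release genes, several partners differed between AngII and saline without passing the limma threshold, and they were picked here after their values were seen. Of the 42 tested genes of the wider list, 5 lay higher and 9 lower with AngII than with saline without overlap. Of all tested genes 17.9% lay higher and 15.8% lower in this way, so such differences were common throughout the table. The calcium-binding S100a1, known to bind SERCA2 and Ryr2, was at 1975.11, 1432.85 and 1467.42 FPKM with AngII+PGE1, 2682.42, 2573.05 and 3777.34 with AngII, and 1096.75, 2408.57 and 1088.46 with saline. Its log2 difference for AngII against saline was 1.06 (limma adjusted p = 0.0726), and all AngII libraries lay above all others. Ppp1cb, a catalytic subunit of the phosphatase that dephosphorylates phospholamban, differed by -0.99 (limma adjusted p = 0.0514), and by 1.07 for AngII+PGE1 against AngII (limma adjusted p = 0.0566). Tmem38a and Tmem38b, the counter-ion channels TRIC-A and TRIC-B of the reticulum, differed by -0.65 and -0.95 (limma adjusted p = 0.0747 and 0.0726), and the surface calcium pump Atp2b1 by 0.85 (limma adjusted p = 0.0854). The saline 2 value of S100a1, 2408.57 FPKM, was the highest outside AngII.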
